A study of Mus musculus with 6 samples.

Results

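Integrins are cell-surface receptors, each made of 1 alpha and 1 beta chain, that bind matrix proteins outside the cell and link them to the actin cytoskeleton inside. Laminins are secreted trimers of an alpha, a beta and a gamma chain, which polymerise into the basement membrane around muscle cells and under the endothelium. The alpha chains of both families decide most of the binding. The alpha7, alpha6 and alpha3 chains of integrins bind laminins, others bind collagens or the arginine-glycine-aspartate (RGD) motif of fibronectin and its relatives, and a further set is carried by leukocytes. The genes described here are those whose symbol is an integrin alpha, integrin beta or laminin chain symbol in the deposited table and whose transcripts include a protein-coding one. That choice gave 37 of 33919 genes, of which 18 were integrin alpha, 8 integrin beta and 11 laminin genes.

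The study sequenced poly(A) RNA in paired-end libraries of mouse tissue labelled aorta, although the extraction protocol in the labels speaks of an adipose type, a conflict that bears on every level below. There were 3 libraries labelled KO and treated with Ang II (angiotensin II, a vasoconstrictor peptide under which arteries thicken and stiffen), and 3 labelled WT with the same treatment. The series' title names OTUD1, a deubiquitinase, in endothelium and SMAD3, which carries TGF-beta signals to the nucleus. The labels give no dose, time, age, strain or promoter for the deletion, and no library without Ang II was analysed here, so each comparison is between the genotype labels under Ang II. Nothing in the labels says whether the 3 libraries of a group came from separate animals, so the p-values rest on library-to-library spread that may be technical.

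Total counts were 65292876 to 71525109 in the KO libraries and 62335027 to 70494899 in the WT libraries. Mitochondrial genes took 50.5 to 53.3% of counts in KO libraries and 55.7 to 57.8% in WT libraries, and 7 genes on chromosome 1 that are nuclear copies of mitochondrial DNA took another 14.3 to 14.7% in KO and 15.4 to 16.0% in WT libraries. That left 22972263 to 23363543 counts per KO library and 17343166 to 19404472 counts per WT library. Otud1 itself went against the label, with 14.5, 15.6 and 16.8 CPM (counts scaled to an effective library size) in the libraries labelled KO, against 8.83, 11.6 and 9.83 CPM in those labelled WT. The difference was 0.63 on the log2 scale (adjusted p = 0.00388, edgeR's quasi-likelihood test). The part of Otud1 removed is not given in the labels, so every direction below is between libraries labelled KO and libraries labelled WT. Muscle markers of more than the vessel wall were present. The summed level of 10 skeletal muscle markers was 29710 to 30674 CPM in KO and 23559 to 24079 CPM in WT libraries, above the 2602 to 2732 CPM in KO and 2651 to 2773 CPM in WT libraries of 10 smooth muscle markers. Tpm2, which skeletal muscle also makes, dominated the smooth muscle sum, which without it was 272 to 276 CPM in KO and 616 to 628 CPM in WT libraries.

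Among the integrins and laminins, the alpha8 integrin gene was far lower in the KO libraries, the laminin alpha2 gene and the collagen-binding alpha10 integrin gene were lower, and the muscle laminin receptor alpha7 was higher. The abundant chains Itgb1, Itgb5 and Lamc1 were lower by small amounts. Of the chains that make up most of the laminin in these libraries, Lama4, Lama5, Lamb1 and Lamb2 did not pass the test, while Lamc1 did. No leukocyte integrin passed. Of the 35 genes with enough counts to test, 8 passed an adjusted p of 0.05 (22.9%), where 22.0% of all 16620 tested genes did. Of these, 2 were higher, where 11.5% of all tested genes were higher, and 6 were lower, where 10.5% of all tested genes were lower. The median log2 fold change of the 35 was -0.19, against -0.02 over all tested genes, and 25 of the 35 values were negative. The 2 groups of libraries did not overlap for 16 of the 35 genes (45.7%), 12 of them lower and 4 higher in KO, where 38.6% of all tested genes did not overlap (19.4% lower and 19.3% higher). An unadjusted p under 0.05 was reached by 12 of the 35, where 33.1% of all tested genes reached it. The 2 untested genes were Lama1, which had 4 counts in 1 KO library and 0 in the other 5 libraries, and Itgad, which had 0, 2 and 8 counts in KO against 4, 7 and 0 in WT libraries.

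**Figure D1:**
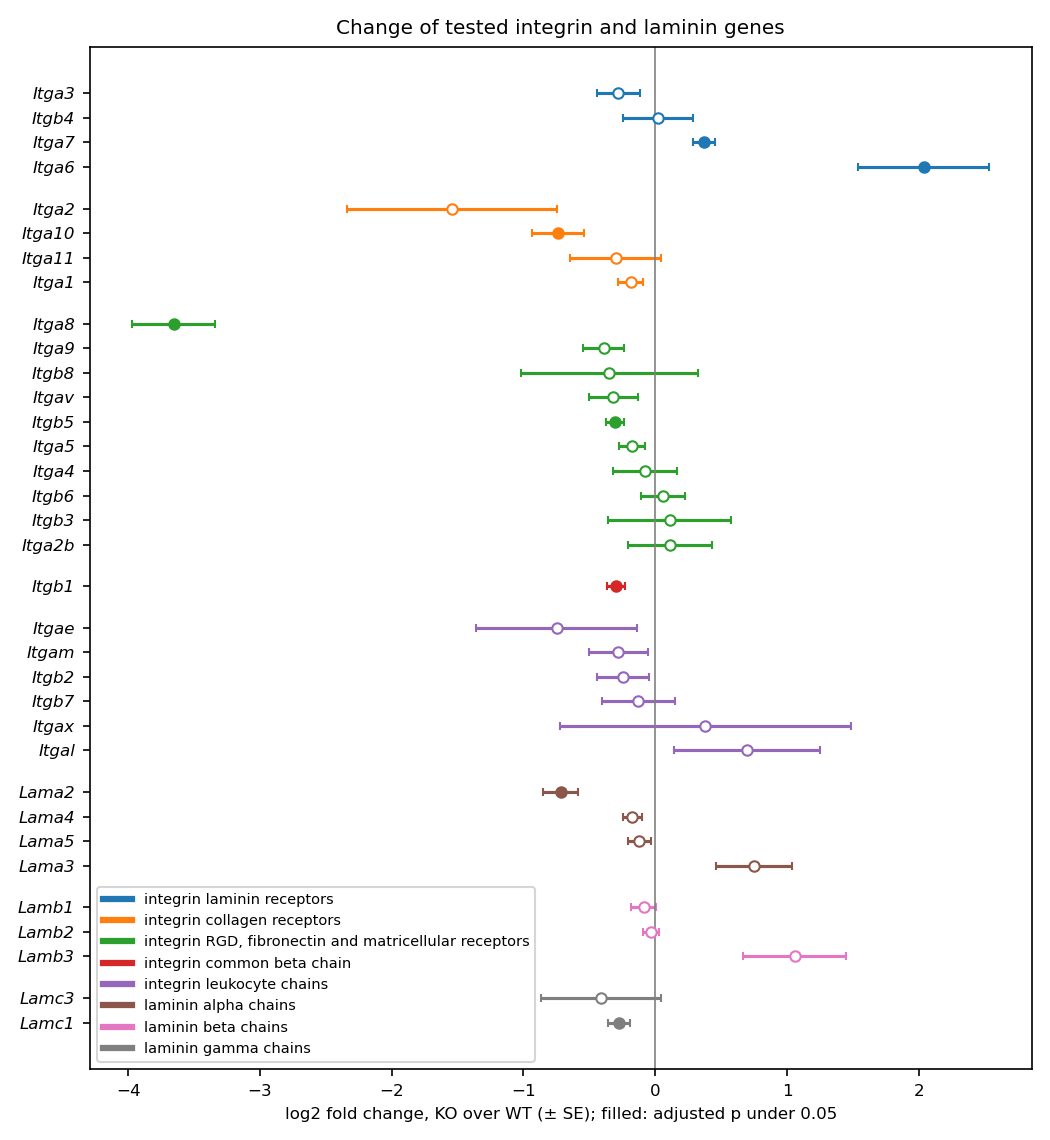
Log2 fold change of KO over WT for tested integrin and laminin genes, grouped by role, with bars of 1 standard error and filled points for an adjusted p under 0.05. Itga8 lies farthest to the left at -3.65 and Itga6 farthest to the right at 2.04, while most other points lie within 1 of zero.

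The promoters of 3 of the lower genes are shown because the study concerns SMAD3 signalling. Itga8 and Lama2 had the smallest p of the tested genes of both families, and Itgb1 encodes the beta chain that alpha8 and most other alpha chains need. Each is the 250 bases before the transcription start in RefSeq's GRCm38.p6 annotation, read 5′ to 3′ on the gene's strand. Capitals mark CAGAC or its reverse GTCTG, a SMAD-binding element, CATTCC or its reverse GGAATG, bound by TEAD factors, and the CArG box bound by serum response factor. The window of Itga8 is on the minus strand at chr2:12301945-12302194, that of Lama2 on the minus strand at chr10:27616943-27617192, and that of Itgb1 on the plus strand at chr8:128685404-128685653.
Itga8: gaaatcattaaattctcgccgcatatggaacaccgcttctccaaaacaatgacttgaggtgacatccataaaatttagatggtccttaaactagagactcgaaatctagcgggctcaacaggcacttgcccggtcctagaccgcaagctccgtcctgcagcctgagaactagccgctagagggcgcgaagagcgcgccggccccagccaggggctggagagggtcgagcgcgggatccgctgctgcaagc
Lama2: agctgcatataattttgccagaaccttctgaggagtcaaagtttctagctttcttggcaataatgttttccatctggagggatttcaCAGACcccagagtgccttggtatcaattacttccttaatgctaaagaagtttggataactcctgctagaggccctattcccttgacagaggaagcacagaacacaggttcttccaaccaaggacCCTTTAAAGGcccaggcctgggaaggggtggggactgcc
Itgb1: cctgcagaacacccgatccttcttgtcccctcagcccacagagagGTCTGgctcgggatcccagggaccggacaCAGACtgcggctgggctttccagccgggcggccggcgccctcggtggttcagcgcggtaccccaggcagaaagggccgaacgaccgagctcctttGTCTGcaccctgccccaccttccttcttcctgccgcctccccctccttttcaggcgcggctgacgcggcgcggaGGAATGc
The Itga8 window held none of these motifs. Itgb5 had the next smallest p after Lama2, ahead of Itgb1, and its window, not printed, held none either. The Lama2 window held 1 CAGAC and 1 CArG box, and the Itgb1 window held 3 CAGAC or GTCTG and 1 GGAATG. The start used for Lama2 lies 2816 bases inside the gene as the deposited table bounds it, and that of Itga8 lies 22 bases outside. RefSeq promoters were matched for 23 of the 37 genes, giving 26 windows, and the search covered both strands, with no overlap between the motifs in the windows printed. CAGAC was in 15 of the 26 windows and in 42.2% of 32851 mouse promoters of the same length, CATTCC was in 3 windows and 12.6% of promoters, and the CArG box was in 2 windows and 1.47% of promoters. The CArG windows were that of Lama2 and that of an Itgb6 start 48950 bases inside the gene. The Itgb6 window nearest the gene's start held no CArG box. The palindrome GTCTAGAC was in 0 of the 26 windows and in 0.167% of promoters. Among the windows of the lower genes, CAGAC was in 2 of 5, CATTCC in 2 and the CArG box in 1. A match is a run of letters and says nothing of binding in the tissue sequenced.

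The laminin alpha chains carry the sites that integrins and dystroglycan bind. Lama2, the alpha2 chain of the muscle and vessel wall laminin-211 and laminin-221 (chr10:26980036-27619758 in GRCm38), had 7.76, 8.36 and 6.86 CPM in KO libraries, against 11.4, 11.9 and 14.5 CPM in WT libraries. Every KO library was below every WT library. This was a log2 fold change of -0.72 ± 0.13 (SE), or 1.64-fold lower in KO (adjusted p = 0.00274). The other well-expressed alpha chains did not move past the test. Lama4, the alpha4 chain that endothelial cells lay down together with alpha5, had 35.4, 38.9 and 38.4 CPM in KO against 40.5, 44.5 and 42.2 CPM in WT libraries. Its groups did not overlap, with KO lower, but its log2 fold change of -0.17 ± 0.07 missed the threshold (adjusted p = 0.117). Lama5, the alpha5 chain of the mature endothelial basement membrane, had 39.8, 44.5 and 36.6 CPM in KO against 42.1, 47.6 and 41.7 CPM in WT libraries. These groups overlapped (log2 fold change -0.12, adjusted p = 0.389). Lama3, an alpha chain of epithelial laminin, was low, with 1.90 to 2.46 CPM in KO and 1.16 to 1.39 CPM in WT libraries. Its KO libraries all stood above its WT libraries, and its log2 fold change of 0.75 ± 0.29 did not pass (adjusted p = 0.0931).

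Per length, in FPKM (fragments per kilobase of transcript, scaled to library size), Lama5 and Lama4 were the main alpha chains in both groups. Lama5 averaged 3.38 FPKM in KO and 3.30 in WT libraries, and Lama4 averaged 2.96 in KO and 3.01 in WT libraries. Of the summed FPKM of the alpha chains, Lama5 made up 48.3% in KO and 46.7% in WT libraries, and Lama4 42.6% in each. The share of Lama2 was 6.30 ± 0.343% in KO and 9.23 ± 1.30% in WT libraries (SD, n = 3 each). The ratio of Lama2 to Lamc1 FPKM within a library was 0.159, 0.187 and 0.152 in KO against 0.214, 0.204 and 0.258 in WT. No KO ratio reached the lowest WT ratio. The ratio of Lama4 to Lamc1 was 0.998, 1.20 and 1.17 in KO against 1.04, 1.05 and 1.03 in WT, so those groups overlapped. That of Lamb2 to Lamc1 was 4.05, 4.29 and 4.01 in KO against 3.44, 3.48 and 3.53 in WT, higher in every KO library. Ratios within a library do not depend on how libraries are scaled, and they show unequal change rather than which chain moved.

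The beta and gamma chains close the trimer. Lamb2, the beta2 chain of vascular and neuromuscular basement membranes, was the most abundant laminin gene per length, with a mean of 10.9 ± 0.855 FPKM in KO and 10.1 ± 0.675 FPKM in WT libraries. Its libraries held 72.3, 69.9 and 66.3 CPM in KO against 67.1, 74.0 and 72.5 CPM in WT. These ranges overlapped, with a log2 fold change of -0.04 (adjusted p = 0.751). Lamb1, the beta1 chain found in most tissues, had 21.2, 21.3 and 19.6 CPM in KO against 20.5, 24.2 and 21.2 CPM in WT libraries, again overlapping (log2 fold change -0.09, adjusted p = 0.582). Lamb2 made up 83.2% and Lamb1 15.2% of beta chain FPKM in KO, against 83.5% and 15.8% in WT libraries. Lamb3, a beta chain of epithelial laminin, had 1.40 to 1.71 CPM in KO and 0.482 to 0.879 CPM in WT libraries. It was higher in every KO library, like Lama3, with a log2 fold change of 1.06 ± 0.39 that did not pass (adjusted p = 0.0823).

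Lamc1, the gamma1 chain that nearly all laminins share (chr1:153218922-153332786), had 24.3, 22.2 and 22.5 CPM in KO against 26.6, 29.0 and 28.0 CPM in WT libraries. All KO libraries were below all WT libraries by a margin close to the spread within each group. The log2 fold change was -0.28 ± 0.08, or 1.21-fold lower (adjusted p = 0.0332), and the call was lost when KO library 2 or 3, or WT library 2 or 3, was left out (adjusted p of 0.117, 0.104, 0.0946 and 0.0741 in that order). Lamc1 made up 91.7% of gamma chain FPKM in KO and 90.9% in WT libraries. Lamc3, a gamma chain of vessels and nerves, was at 0.547 to 0.909 CPM in KO and 0.732 to 1.17 CPM in WT libraries and did not pass (log2 fold change -0.41, adjusted p = 0.59).

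**Figure D2:**
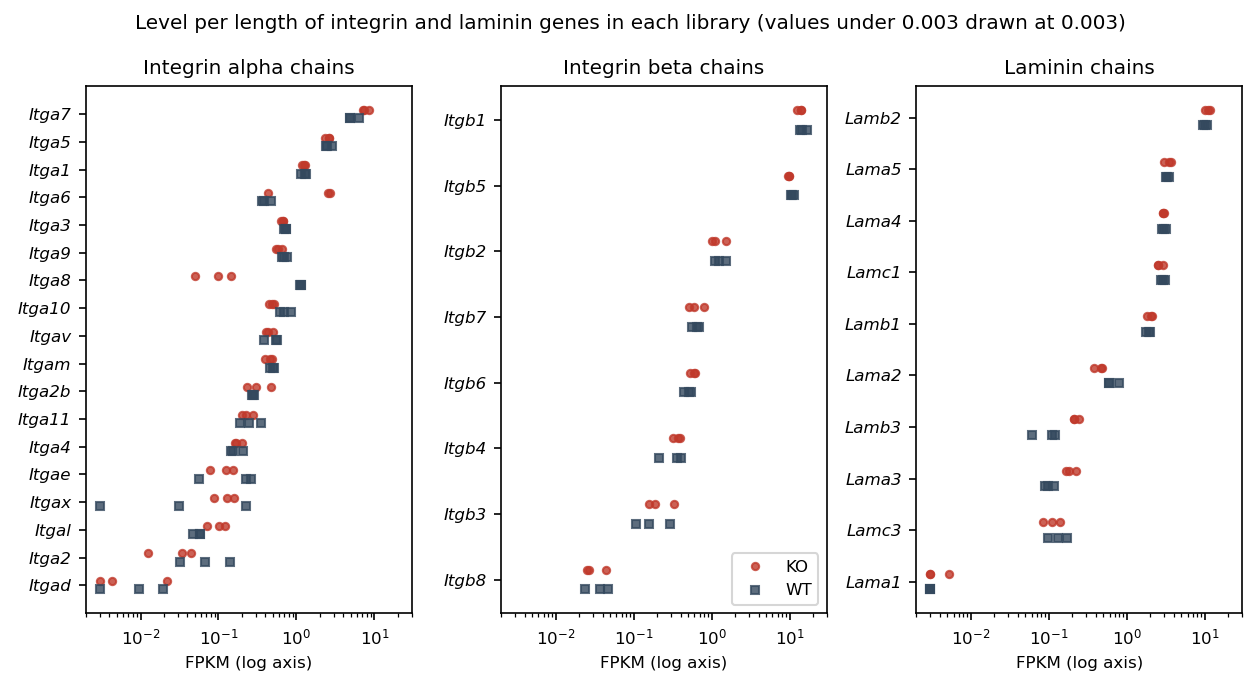
FPKM of integrin and laminin genes in each library on a log axis, with KO as circles above WT as squares and values under 0.003 drawn at 0.003. Itga7, Itgb1, Itgb5 and Lamb2 lie highest, and Itga8 is the gene whose groups stand farthest apart.

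The integrins that bind laminin are built from the alpha3, alpha6 and alpha7 chains with beta1, or from alpha6 with beta4. Of these 4 genes other than Itgb1, 2 were higher in KO and 2 did not pass, with a median log2 fold change of 0.20. Over all tested genes, 11.5% were higher and 10.5% lower. Itga7, the alpha7 chain of the main laminin receptor of skeletal and smooth muscle (chr10:128933818-128958282), had 69.5, 62.3 and 63.1 CPM in KO against 46.4, 47.5 and 56.8 CPM in WT libraries. The lowest KO library was above the highest WT library. The log2 fold change was 0.37 ± 0.09, or 1.29-fold higher in KO (adjusted p = 0.00929). Itga7 was the most abundant integrin alpha gene per length in both groups, at 7.66 ± 0.738 FPKM in KO and 5.35 ± 0.856 FPKM in WT libraries. Its share of all integrin alpha FPKM was 44.8 ± 3.13% in KO and 35.6 ± 3.06% in WT libraries, and the libraries' shares of 45.6, 41.3 and 47.4% in KO did not overlap the 33.2, 34.5 and 39.0% in WT. The ratio of Itga7 to Itgb1 FPKM was 0.608, 0.521 and 0.588 in KO against 0.337, 0.356 and 0.382 in WT. Every KO library held more Itga7 per Itgb1 than any WT library. Of 10 skeletal muscle markers, 8 were also higher and 1 lower in KO, with a median log2 fold change of 0.41. Smooth muscle markers went mostly the other way, with 2 of 10 higher and 7 lower in KO. The part of either list in the Itga7 difference was not tested.

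Itga6, the alpha6 chain of endothelial, epithelial and nerve laminin receptors (chr2:71745616-71858416), was split within the KO group. It had 23.6, 25.8 and 4.26 CPM in KO against 5.11, 4.01 and 3.95 CPM in WT libraries. KO libraries 1 and 2 stood well above all other libraries, and KO library 3 lay inside the WT range. The log2 fold change of 2.04 ± 0.50 passed the test (adjusted p = 0.0129) but rested on those libraries. Without KO library 3 it was 2.50 and kept the call, while without KO library 1 or 2 it was 1.79 or 1.68 and lost it, as it also did without WT library 2 or 3. Other genes of the same receptors did not share the split. Itgb4, the beta4 partner of alpha6, had 2.27 to 2.97 CPM in KO and 1.83 to 3.34 CPM in WT libraries (log2 fold change 0.02, adjusted p = 0.971), and Itga3 had 3.82 to 4.13 CPM in KO and 4.62 to 5.17 CPM in WT libraries (log2 fold change -0.28, adjusted p = 0.27). Of 6 Schwann cell markers, whose cells carry alpha6beta4, 3 were lower and none higher in KO. The shares over all tested genes were 10.5% lower and 11.5% higher. The summed level of these markers was 25.4 to 26.7 CPM in KO and 39.9 to 49.5 CPM in WT libraries. Their part in the Itga6 values was not tested.

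**Figure D3:**
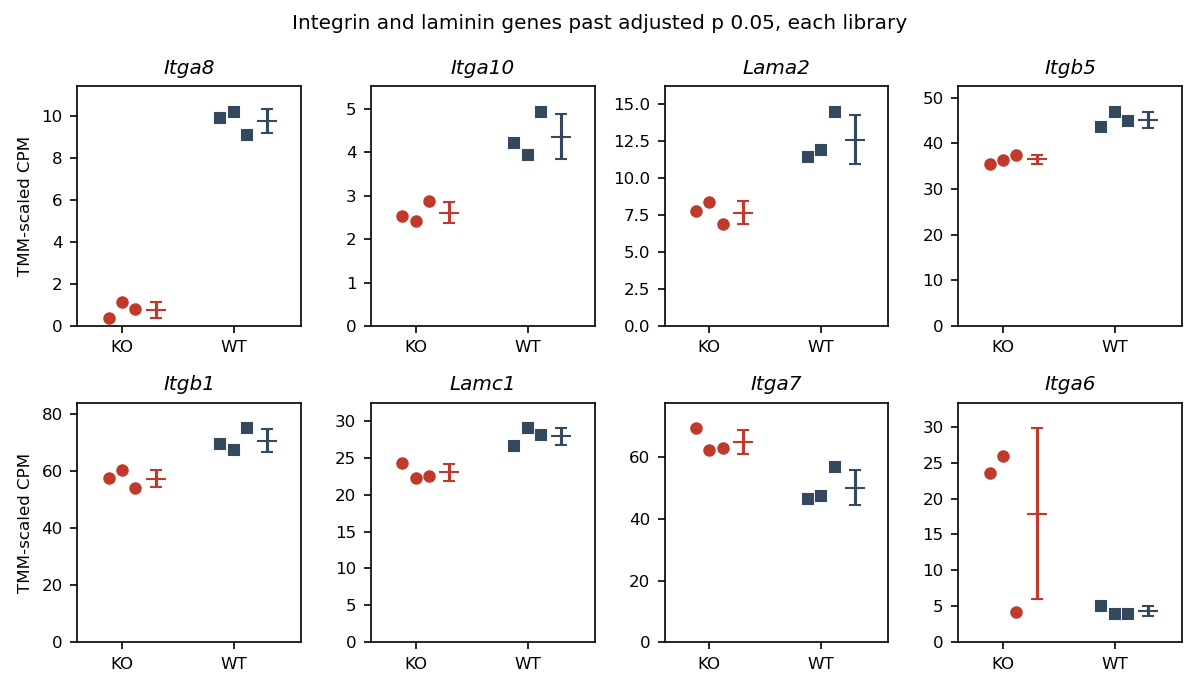
TMM-scaled CPM of the 8 genes past an adjusted p of 0.05 in each KO and WT library, with bars for the mean and SD of 3 libraries. Itga8 lies near 1 CPM in KO and near 10 in WT, and Itga6 is high in only KO libraries 1 and 2, with the third KO library at the WT level.

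Receptors for RGD-bearing and related matrix proteins were the next group, of which 2 of 10 genes were lower, 0 higher and 8 not called, with a median log2 fold change of -0.24. Of all tested genes, 10.5% were lower and 11.5% higher. Itga8, the alpha8 chain that pairs with beta1 and is typical of contractile vascular smooth muscle and of some fibroblasts (chr2:12106632-12301922), had 27, 83 and 58 counts in KO against 666, 613 and 570 counts in WT libraries. Scaled, these were 0.379, 1.14 and 0.799 CPM in KO against 9.92, 10.2 and 9.11 CPM in WT. All KO libraries were far below all WT libraries. The log2 fold change was -3.65 ± 0.31, or 12.6-fold lower in KO (adjusted p = 1.3e-05), a size of at least 8-fold that 183 of 16620 tested genes reached in the same direction (1.10%). In FPKM, Itga8 averaged 0.098 ± 0.0473 in KO and 1.13 ± 0.0166 in WT libraries. Its share of alpha chain FPKM was 0.582% in KO and 7.61% in WT libraries, and its ratio to Itgb1 was 0.00357, 0.0104 and 0.00811 in KO against 0.0792, 0.0841 and 0.0674 in WT. The gene shares 372 exonic bases with an antisense transcript, E030013I19Rik, which had 0, 4 and 28 counts in KO against 125, 99 and 87 counts in WT libraries. Whether counting used strand is not given, so part of these counts cannot be told apart.

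Npnt, which encodes nephronectin, a basement membrane ligand of alpha8beta1, moved the same way as its receptor. It had 0.281, 0.410 and 0.565 CPM in KO against 4.93, 3.64 and 2.86 CPM in WT libraries, with no overlap (log2 fold change -3.18 ± 0.36, 9.07-fold lower, adjusted p = 9.66e-05). Npnt was singled out from the ligand list after its values were seen. Most smooth muscle markers and the fibroblast markers moved with Itga8, where 10.5% of all tested genes were lower and 11.5% higher. Of 10 smooth muscle markers, 7 were lower and 2 higher in KO. Among the lower ones, Acta2 was at 50.1, 48.1 and 48.8 CPM in KO against 202, 205 and 210.1 CPM in WT libraries. Myocd, also lower, was at 0 in every KO library. The higher ones were Tpm2 (log2 fold change 0.185) and Synpo2 (0.314), and Smtn did not pass. All 8 fibroblast markers were lower, with a summed level of 163 to 181 CPM in KO and 521 to 551 CPM in WT libraries. Of 7 tendon markers, 6 were lower, with sums of 17.4 to 23.3 CPM in KO and 110 to 117 CPM in WT libraries, and Kera was at 0 in every KO library. In bulk tissue, fewer cells of a type and less RNA per cell cannot be told apart, and the part of these markers in the Itga8 difference was not tested.

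**Figure D4:**
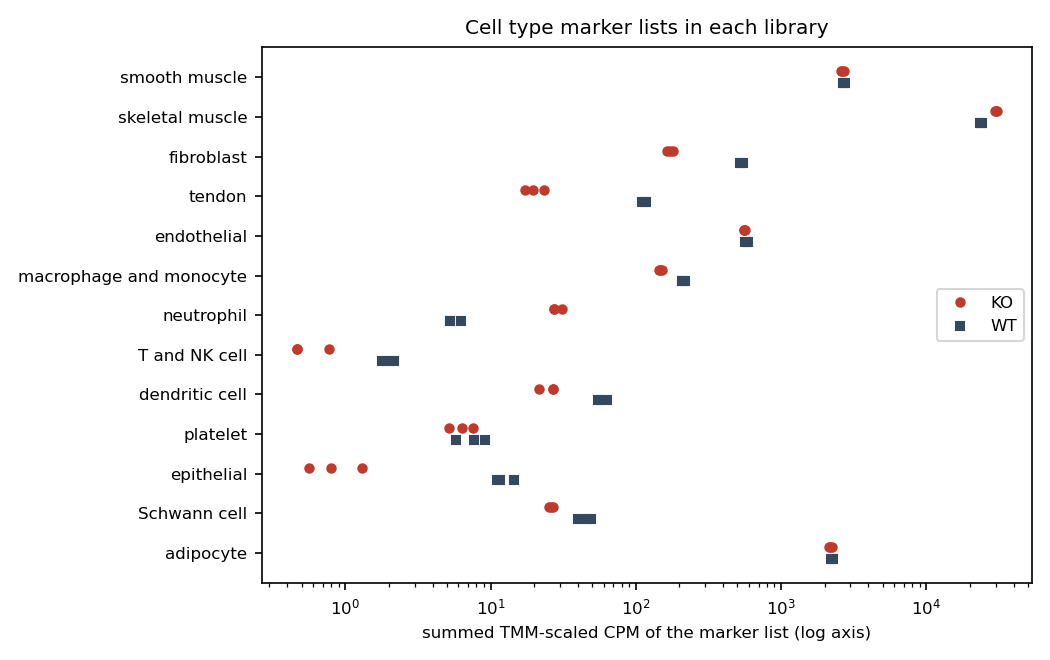
Summed TMM-scaled CPM of each cell type marker list in every library on a log axis, KO as circles and WT as squares. Fibroblast, tendon, macrophage, dendritic and epithelial sums lie lower in KO, skeletal muscle and neutrophil sums lie higher, and smooth muscle, platelet and adipocyte sums overlap.

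Itgb5, the beta chain of the vitronectin receptor alphavbeta5 (chr16:33829665-33949338), had 35.5, 36.4 and 37.5 CPM in KO against 43.5, 46.9 and 44.8 CPM in WT libraries. These groups were tight and apart, for a log2 fold change of -0.31 ± 0.07, 1.24-fold lower in KO (adjusted p = 0.00705). Itgav, its alpha partner, had 4.65 to 5.79 CPM in KO and 4.90 to 7.19 CPM in WT libraries and did not pass (log2 fold change -0.32, adjusted p = 0.267). Itga5, the alpha chain of the fibronectin receptor, came after Itga7 per length, at 2.53 FPKM in KO and 2.58 FPKM in WT libraries. It had 13.0, 12.4 and 13.9 CPM in KO against 14.2, 14.4 and 15.7 CPM in WT libraries. All KO values were below all WT values, but the log2 fold change of -0.18 ± 0.10 did not pass (adjusted p = 0.249). Itga9, which binds tenascin and other matricellular proteins, had 4.20 to 5.25 CPM in KO and 5.85 to 6.84 CPM in WT libraries (log2 fold change -0.39, adjusted p = 0.107). The remaining genes of the group did not pass and overlapped between groups. They were Itga4, a receptor for VCAM1 and fibronectin (log2 fold change -0.08), the TGF-beta activating chains Itgb6 (0.06) and Itgb8 (-0.35), and Itga2b and Itgb3, the platelet fibrinogen receptor (0.11 each). Of 4 tested platelet markers none passed, with sums of 5.20 to 7.62 CPM in KO and 5.81 to 9.22 CPM in WT libraries.

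The collagen receptors are alpha1, alpha2, alpha10 and alpha11, each paired with beta1. Itga10, typical of cartilage and other dense connective tissue (chr3:96645584-96664519), had 2.54, 2.42 and 2.88 CPM in KO against 4.21, 3.94 and 4.94 CPM in WT libraries. No KO library reached the lowest WT library, though the gene shares 1739 exonic bases with a gene model, Gm42957, that had 0, 15 and 5 counts in KO and 0 in every WT library. It changed by -0.74 ± 0.20 on the log2 scale, 1.67-fold lower in KO (adjusted p = 0.0202), and the call was lost without KO library 1, KO library 2 or WT library 3 (adjusted p of 0.0622, 0.0701 and 0.0759). Itga1, the collagen IV receptor chain of smooth muscle, was the most abundant of the group, at 1.23 FPKM in KO and 1.25 FPKM in WT libraries. Its CPM of 23.8, 24.6 and 23.4 in KO overlapped the 27.7, 30.2 and 23.8 in WT (log2 fold change -0.19, adjusted p = 0.215). Itga11, a fibroblast receptor for fibrillar collagen, had 1.13 to 1.45 CPM in KO and 1.20 to 2.10 CPM in WT libraries (log2 fold change -0.30, adjusted p = 0.607). Itga2, found on epithelium and platelets, had 0.0958 to 0.323 CPM in KO and 0.256 to 1.19 CPM in WT libraries (log2 fold change -1.54, adjusted p = 0.209).

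Itgb1, the beta1 chain that most of the alpha chains above need (chr8:128685654-128733200), had 57.6, 60.2 and 54.1 CPM in KO against 69.4, 67.1 and 74.9 CPM in WT libraries. Every KO library was below every WT library. Its log2 fold change was -0.30 ± 0.07, or 1.23-fold lower in KO (adjusted p = 0.00792). Per length it was the most abundant integrin gene in both groups, at 13.4 ± 0.984 FPKM in KO and 14.9 ± 1.56 FPKM in WT libraries, followed by Itgb5 at 9.79 ± 0.122 FPKM in KO and 10.9 ± 0.469 FPKM in WT libraries. The share of Itgb1 among integrin beta FPKM was 51.0% in KO and 51.7% in WT, and that of Itgb5 was 37.4% in KO and 38.0% in WT. On the authors' FPKM, tested with limma and its own filter, where the median gene shifts by 0.15 on the log2(FPKM + 1) scale rather than by -0.02, Itgb1, Itgb5 and Lamc1 stayed lower in KO without passing. Median-of-ratios scaling of the counts kept all 3 calls. Of the 12 integrin and laminin genes tested there, Itga7 was higher and Itga8 lower, with pseudocounts of 1, 0.1 and 0.5 alike, while 41.5, 41.0 and 41.2% of all tested genes passed.

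**Figure D5:**
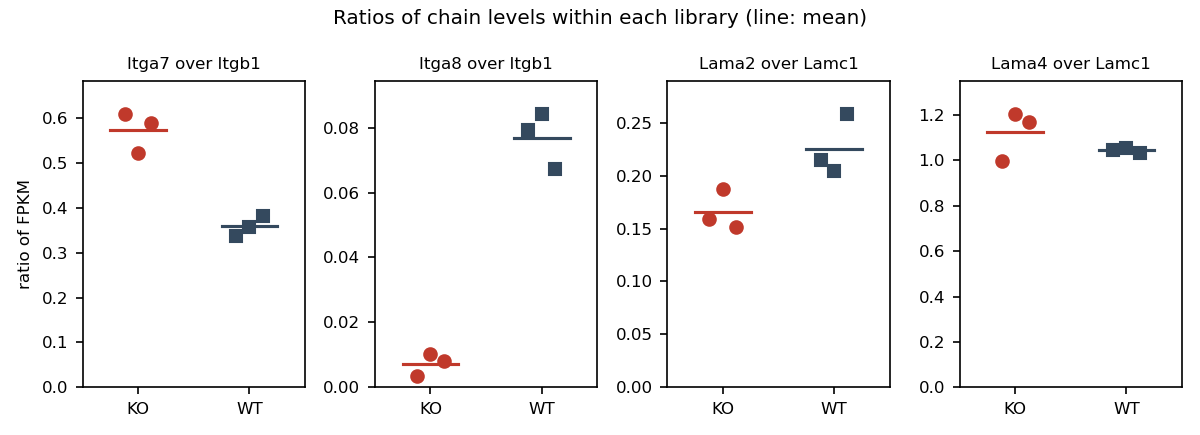
Ratio of FPKM between paired chains within each library, KO left of WT, with a line for the mean of 3 libraries. Itga7 over Itgb1 is higher in every KO library, Itga8 over Itgb1 and Lama2 over Lamc1 are lower in every KO library, and Lama4 over Lamc1 overlaps.

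The leukocyte integrins were low and none of the 6 tested passed in edgeR's quasi-likelihood test, with 0 at an unadjusted p under 0.05, which 33.1% of all tested genes reached, and 0 in DESeq2, which called 31.0% of all tested genes. Itgb2, the beta2 chain shared by the myeloid and lymphoid receptors, was the most abundant at 1.21 ± 0.282 FPKM in KO and 1.29 ± 0.219 FPKM in WT libraries. It had 4.72, 3.60 and 3.31 CPM in KO against 3.98, 4.61 and 5.19 CPM in WT libraries, which overlapped (log2 fold change -0.24, adjusted p = 0.448). Itgam, the CD11b chain of neutrophils and macrophages, had 2.02 to 2.63 CPM in KO and 2.76 to 2.98 CPM in WT libraries. Its KO libraries were all below its WT libraries (log2 fold change -0.28, adjusted p = 0.437). Itgam shares 3450 exonic bases with a second gene model, so its counts are uncertain. Itgal, the LFA-1 alpha chain of lymphocytes and other leukocytes, had 0.506 to 0.868 CPM in KO and 0.372 to 0.466 CPM in WT libraries. Its KO libraries were all above its WT libraries (log2 fold change 0.70 ± 0.55, adjusted p = 0.433). Itgax, the CD11c chain of dendritic cells and macrophages, had 0.451 to 0.854 CPM in KO and 0 to 1.28 CPM in WT libraries (adjusted p = 0.858). Itgae, which binds E-cadherin (adjusted p = 0.446), and Itgb7 (adjusted p = 0.807) also overlapped between groups.

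Markers of the cells that carry these chains did move, where 10.5% of all tested genes were lower and 11.5% higher. The macrophage and monocyte list had 5 of 8 genes lower and 0 higher, with sums of 145 to 150.5 CPM in KO and 208 to 218 CPM in WT libraries. Of 8 neutrophil markers, 5 were higher and 1 lower, with sums of 27.2 to 30.8 CPM in KO and 5.26 to 6.27 CPM in WT libraries and Retnlg at 0 in every WT library. T and NK cell markers summed to 0.463 to 0.771 CPM in KO and 1.80 to 2.17 CPM in WT libraries, with 1 of 4 tested genes lower (Cd3e, at 0 in KO), while Ncr1 was at 0 in every KO library and in 2 of 3 WT libraries. Of 6 dendritic cell markers 1 was lower, H2-Ab1, which carried most of the list's sums of 21.6 to 27.1 CPM in KO and 55.2 to 63.1 CPM in WT libraries. Without it the sums overlapped, at 11.5 to 13.5 CPM in KO and 13.2 to 18.3 CPM in WT libraries. Epithelial markers, which matter for Lama3, Lamb3 and Itgb4, were at 0.562 to 1.30 CPM in KO and 11.1 to 14.6 CPM in WT libraries, with 4 of 4 tested lower and Epcam and Cdh1 at 0 in KO, while Krt5 was at 0 in all 6 libraries. Of 8 endothelial markers, 3 were higher and 2 lower, with sums of 558 to 568 CPM in KO and 568 to 593 CPM in WT libraries. Without Egfl7, their most abundant marker, the order turned, with 428 to 434 CPM in KO and 379 to 402 CPM in WT libraries. Of 6 adipocyte markers 1 was higher and 3 lower, with sums of 2125 to 2229 CPM in KO and 2218 to 2281 CPM in WT libraries and, without Fabp4, of 546 to 596 CPM in KO and 449 to 461 CPM in WT libraries. The part of these markers in the values of the leukocyte and epithelial chains was not tested.

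The proteins that laminins join in the basement membrane were lower more often than higher in KO. Of 16 such partners, 9 were lower, 3 higher and 4 not called, with a median log2 fold change of -0.42. Among all tested genes, 10.5% were lower and 11.5% higher. Nid1, nidogen, which bridges the laminin gamma1 chain to collagen IV, had 22.6 ± 1.27 CPM in KO and 37.3 ± 2.76 CPM in WT libraries (log2 fold change -0.72). Sparc, a collagen-binding matricellular protein, had 151 ± 5.24 CPM in KO and 272 ± 9.21 CPM in WT libraries (log2 fold change -0.84). The basement membrane collagens Col18a1 and Col15a1 were lower too, by log2 fold changes of -1.43 and -1.12. The 3 higher genes were Agrn (agrin), Dag1 (dystroglycan) and Bcam (the Lutheran receptor for laminin alpha5), with log2 fold changes of 0.29, 0.31 and 0.40. All 3 bind laminin, but so does Nid1, which was lower.

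Ligands of integrins other than laminins were lower still. Of 22 tested, 17 were lower, where 10.5% of all tested genes were lower. In this list 1 was higher (Tnxb, tenascin-X, 0.47) and 4 were not called, and the median log2 fold change was -0.94. The named ones were the fibrillar collagens Col1a2 (-2.18), Col1a1 (-2.10) and Col3a1 (-0.97) and the matricellular Postn (-1.30). Col1a1 and Col1a2 are also among the fibroblast markers. Cdh1, the E-cadherin ligand of the alphaE chain and also an epithelial marker, had 0 counts in every KO library, at least 8.63-fold lower against a floor of 12 counts per library. Of 29 cytoplasmic adaptors and kinases that integrins bind, 8 were lower, 4 higher and 17 not called, with a median log2 fold change of -0.25. By comparison, 10.5% of all tested genes were lower and 11.5% higher. Flna (filamin A), Tns3 (tensin 3), Actn1 (alpha-actinin 1) and Rap1b, a small GTPase that activates integrins, were lower, with log2 fold changes of -1.03, -1.61, -1.25 and -0.60 in that order. The integrin-linked kinase Ilk (-0.39) and its partner Parva (-0.63) were lower, while Parvb (0.58), Pxn (paxillin, 0.19), Tns1 (0.14) and Sharpin, an integrin inactivator (0.52), were higher. The talins Tln1 and Tln2 and the kindlin Fermt2, which switch integrins on, did not pass.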

How the data were processed

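Poly(A) RNA of mouse tissue labelled aorta was sequenced as 3 KO and 3 WT libraries, all with Ang II. The authors deposited one table with read counts and FPKM per gene and library, per the file headers. Bowtie 0.12.2, HISAT2 2.0 and the build mm8 appear in the submitters' processing notes without a role. The gene coordinates in the file were identical to GENCODE M21 (GRCm38) for 85.9% of 33815 shared genes, so they are given as GRCm38. The sources used here do not give the program that counted reads or its strand option. Of low counts, 33.0 to 34.9% were multiples of 4, where 25% would be by chance, so floors were set at 12 counts.

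Counts were tested as deposited with edgeR 4.0.16 (R 4.3.3), using TMM scaling, filterByExpr and the quasi-likelihood test over 16620 genes, with Benjamini-Hochberg adjustment and a threshold of 0.05. CPM values are TMM-scaled and log2 fold changes are KO over WT. FPKM values, the authors' own normalization, served to compare levels between genes. Same-numbered KO and WT libraries did not vary together, so no block was used. Alternatives were DESeq2 1.42.0, limma 3.58.1 on log2(FPKM + pseudocount), other filters and scalings, and leaving out each library. On simulated counts for this comparison, 26% of genes changed 1.5-fold and 70% of genes changed 2-fold were recovered (100 each among 16620 genes), with 10 false calls. Only genes above 1 CPM were changed in the simulation, and far fewer than the 3658 genes called in the data. These shares therefore do not give the power of the tests above. Genes under 1 CPM are limited by depth.

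Every integrin and laminin gene is named except 1, which is counted in the totals and not reported here, with a value per library where its mean FPKM was at least 1 in a group. From each pathway list up to 4 genes past the threshold with the smallest p were named by rule, and the other named ones were chosen after their values were seen. The genes described, the pathway lists and the cell type marker lists were chosen with earlier results of these data known. Fermt1 was not analysed here.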

Additional observations from a re-analysis of the deposited data

How the results depend on the processing

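Itga8, Itga7, Lama2, Itgb5 and Itgb1 kept their direction and their call in all 6 fits that left out a library and in every other count-based alternative, and Lamc1, Itga10 and Itga6 did so in only 2, 3 and 2 of those 6 fits. Leaving out 1 library gave 1 to 2 genes higher and 4 to 6 lower among the integrins and laminins, where 16.4 to 18.2% of all tested genes were called. DESeq2 called 4 higher, adding Lama3 and Lamb3, and 7 lower, adding Lama4 (31.0% of all tested genes called), and robust empirical Bayes called 1 higher, losing Itga6 (23.4% called). A filter on a mean CPM of at least 1 also called Lamb3 higher (29.4% called). Without a low-count filter Lamc1 was lost (11.3% called). Same-numbered libraries were compared by their deviations from their own group's mean, and these correlated at only 0.044, 0.003 and 0.032. With the replicate number as a block all the same, 2 were higher and 5 lower among the integrins and laminins. Lamc1 was lost at an adjusted p of 0.0663, and 1703 genes were higher and 1552 lower over all genes (19.6% called). On log2(FPKM + 1), + 0.1 and + 0.5 with limma, 12 of the 37 genes were tested, 1 was higher (Itga7) and 1 lower (Itga8) each time, and without a filter 0 were higher and 1 lower (Itga8). There 41.5, 41.0, 41.2 and 9.22% of all tested genes were called, with 736, 727, 729 and 754 lower against 1751 in the counts, and 78.6, 78.7, 78.7 and 71.2% of calls were higher, against 52.1%. Values that turned sign were all of genes not called: Lama5 (0.023, 0.027, 0.025 and 0.023), Lamb1 (0.045, 0.064, 0.054 and 0.045) and Lamb2 (0.106, 0.115, 0.111 and 0.106) in those 4 FPKM fits; Itga4 (0.012) and Itgb7 (0.009) on unfiltered FPKM; and Itgb4 (-0.002) with a mean CPM of at least 1. Without a library the signs that turned were Itga2b (-0.225 to 0.303), Itga4 (-0.179 to 0.124), Itgax (-0.202 to 2.681), Itgb3 (-0.286 to 0.618) and Itgb4 (-0.187 to 0.223), each given as the range over the 6 fits. A chain share from counts per kilobase was not run. Sums of marker lists without their most abundant gene were added after seeing the data, and those that changed overlap or order are given beside the lists. The cause of these changes was not tested. Depth limits the leukocyte chains and Itga2, Itgb8 and Lamc3 most.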

Other observations

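The split of Itga6 within the KO group was shared by 1 other gene of all 33919. Only Itga6 and Igf2 had KO libraries 1 and 2 more than 1.5 above every other library on the log2(CPM + 0.5) scale. Igf2, an imprinted growth factor gene, had 21.1, 21.1 and 0 CPM in KO against 0.283, 0.183 and 0.0799 CPM in WT libraries. Its smallest gap was 4.78 and that of Itga6 was 2.10 on that scale. Igf2 was named after its values were seen.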
